A study of Mus musculus with 22 samples.

Results

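The 9 genes described here take up, bind, make and break down retinoids: Stra6, Crabp1, Crabp2, Dhrs3, Rdh10, Aldh1a2, Cyp26a1, Cyp26b1 and Cyp26c1. They were chosen by symbol for these functions from 52535 symbols with counts. All 9 passed the filter on low counts, which kept 16765 genes for testing. RNA was sequenced from E14 mouse embryonic stem cells, a line derived from the blastocyst. All libraries came from cells given 2 µM retinoic acid for 1 day after LIF and the 2 kinase inhibitors of the naive culture medium had been taken away, so no group was left without retinoic acid. The genotypes were E1-KO, which lacks the element E1, E2-KO, which lacks the element E2, D-KO, which the labels do not spell out and which is read here as lacking both elements, and WT, with 3 libraries each. E1 and E2 are enhancers studied for their action on the HoxB genes. The submitters call the libraries of a genotype biological replicates. Separate cultures or clones are not named for them, so p-values measure only the spread between these libraries, which may be technical.

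Retinol is a form in which retinoids reach cells, while the cells studied here were given retinoic acid itself. STRA6 is a membrane receptor that moves retinol into cells from its carrier in blood, RDH10 oxidises retinol to retinal, DHRS3 reduces retinal back to retinol, and ALDH1A2 oxidises retinal to retinoic acid. CRABP1 and CRABP2 bind retinoic acid in the cytosol, where CRABP2 is known to carry it to the nuclear receptors. The CYP26 enzymes are cytochromes that oxidise retinoic acid and so limit it. Cyp26a1, Stra6, Crabp2 and Dhrs3 are known to be switched on by retinoic acid itself, and Cyp26a1 is a standard readout of the hormone in stem cells.

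The promoter of Cyp26a1 is the textbook example of such control, so its bases are shown beside those of the other CYP26 genes. The sequences are the RefSeq windows (GRCm38.p6) cut before the first start of transcription that RefSeq or GENCODE M21 annotates, written 5′ to 3′ on the strand of the gene. Capitals mark a pair of direct repeats with 5 bases between them, the spacing recognised by retinoic acid receptors.
Cyp26a1, chr19:37697558-37697797, plus strand: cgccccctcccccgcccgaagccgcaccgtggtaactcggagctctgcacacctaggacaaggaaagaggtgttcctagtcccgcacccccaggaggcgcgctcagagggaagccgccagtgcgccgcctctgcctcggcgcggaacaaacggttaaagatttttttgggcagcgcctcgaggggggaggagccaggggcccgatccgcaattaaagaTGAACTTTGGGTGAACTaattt
Cyp26b1, chr6:84593909-84594060, minus strand: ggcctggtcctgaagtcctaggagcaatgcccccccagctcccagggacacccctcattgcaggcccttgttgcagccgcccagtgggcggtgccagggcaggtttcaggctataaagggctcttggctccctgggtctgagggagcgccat
Cyp26c1, chr19:37685430-37685580, plus strand: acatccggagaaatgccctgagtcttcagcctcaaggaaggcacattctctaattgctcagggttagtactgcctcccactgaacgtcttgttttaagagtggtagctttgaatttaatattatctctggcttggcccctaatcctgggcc

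The search took 6-base elements (AGGTCA or AGTTCA or GGGTCA or GGTTCA) on both strands, alone or as direct repeats with 1, 2 or 5 bases between them. Each repeat also holds 2 single elements. The Cyp26a1 repeat lay at chr19:37697776-37697792, between 32 and 16 bases before the RefSeq start, and reads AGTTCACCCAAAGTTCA on the strand opposite to the gene. Of 32851 windows of 300 bases (250 before to 50 after a start), 32 held a repeat with 5 bases between, or 0.0974%. Repeats with 1 and 2 bases between were in 0.222% and 0.268% of the windows, and a single element in 43.7%. The table held 12 windows for 7 of the 9 genes, and Cyp26a1 alone of these 7 held any of the repeats. Such matches describe letters and are not shown to be sites.

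Cyp26c1 (chromosome 19, 37685581 to 37693398, GRCm38) and Cyp26a1 (37697798 to 37701536) are neighbours on the same strand, with 4399 bases and 0 annotated genes between them. Cyp26b1 lies apart from them on chromosome 6 (84571414 to 84593908). Stra6 (58063788 to 58153996), Crabp1 (54764748 to 54773110) and Aldh1a2 (71215789 to 71296243) are on chromosome 9. Crabp2 is on chromosome 3 (87948666 to 87953376), Dhrs3 on chromosome 4 (144892827 to 144928209) and Rdh10 on chromosome 1 (16105774 to 16133734). None of the 9 is on chromosome 11, which carries the HoxB cluster. All 9 are protein-coding, and their exons share 0 bases with the exons of other genes in GENCODE M21, on either strand.

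Each library had 9101547 to 13007735 counts on genes, and a retinoid gene had 3 to 3895 of them. The sources used here give no positions for E1 and E2, so Hoxb1, the first HoxB gene to answer retinoic acid, is the nearest check of the genotypes. Hoxb1 averaged 0.291 ± 0.109 CPM (counts scaled to library size by TMM) in E1-KO, 0.838 ± 0.450 CPM in E2-KO and 0.528 ± 0.306 CPM in D-KO, against 22.9 ± 7.50 CPM in WT (SD, n = 3 each). The WT libraries stood apart from each other. A chi-square per gene between libraries of a genotype was 2.20 to 3.99 for KO pairs and 38.9 to 77.8 for WT pairs. The mitochondrial share of the counts was 1.36% to 1.48% for E1-KO libraries, 1.63% to 1.81% for E2-KO, 2.53% to 2.69% for D-KO, and 3.50%, 1.94% and 5.88% for WT replicates 1, 2 and 3. Levels relative to the mean of each gene also ran with GC content, to a degree that differed by genotype. Spearman's correlation over genes was 0.25 to 0.35 for E1-KO, 0.30 to 0.43 for E2-KO and -0.10 to -0.02 for D-KO. For WT replicates 1, 2 and 3 it was -0.56, 0.14 and -0.43. Fits with this trend removed are among the alternatives. All 10 embryonic stem cell markers examined were above the filter, and their summed level was 6733 to 7098 CPM in E1-KO, 6415 to 6904 CPM in E2-KO, 5570 to 5760 CPM in D-KO and 3066 to 5243 CPM in WT. These are bulk samples, in which fewer cells of a type and less RNA per cell cannot be told apart.

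Retinoid genes were mostly lower without the enhancers. In E1-KO 7 of the 9 were called and all 7 were lower than in WT (edgeR quasi-likelihood test, Benjamini-Hochberg adjusted p below 0.05 over all genes tested), where 34.2% of all genes were called and 18.5% called lower. In E2-KO 6 were called, all lower, where 35.3% of all genes were called and 18.6% called lower. In D-KO 6 were called, all lower, where 22.8% of all genes were called and 12.2% called lower. Without D-KO replicate 1 the D-KO count was 3, where 14% of all genes were called. In a fit of the 6 D-KO and WT libraries alone it was 3, where 9.09% of all genes were called. The median log2 fold change of the 9 genes was -1.84 for E1-KO, -1.02 for E2-KO and -1.05 for D-KO, each against WT. The same median over all genes tested was -0.01, 0.00 and -0.02. In each of these comparisons 6 genes had all 3 KO libraries below all 3 WT libraries, which held for 20.1%, 19.7% and 16.2% of all genes. The 3 comparisons share the WT libraries and are not independent. With 3 libraries against 3, an exact permutation test of a single gene cannot go below 0.1, so the calls rest on the model fitted across genes.

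**Figure D1:**
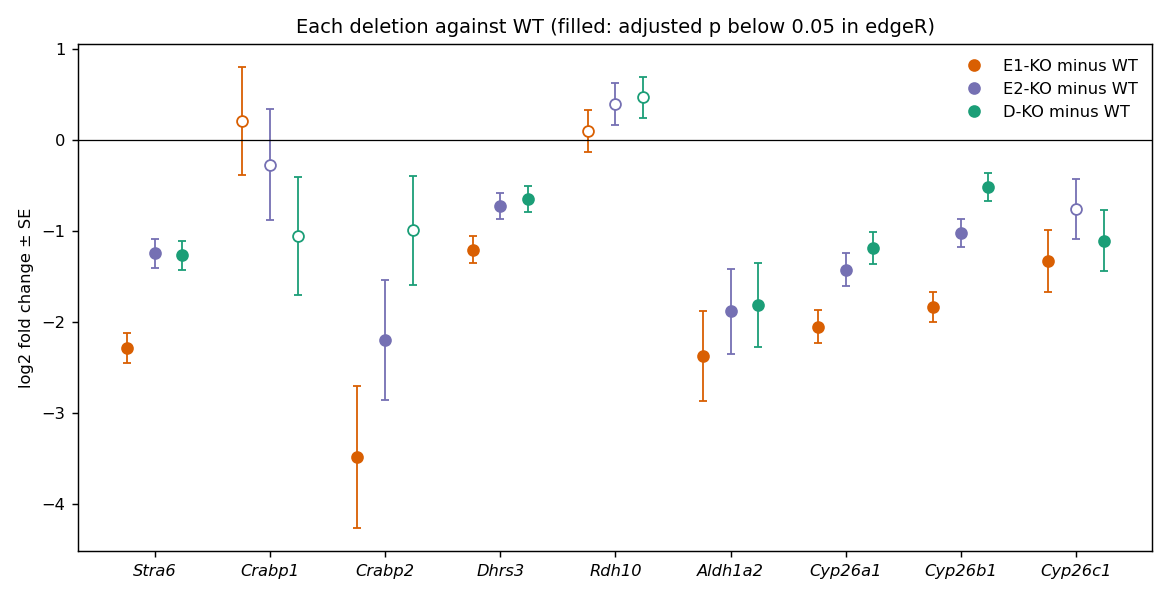
Log2 fold change of each retinoid gene (x axis) in E1-KO, E2-KO and D-KO against WT, with the standard error as bars and filled points for an adjusted p below 0.05 in edgeR. Stra6, Dhrs3, Aldh1a2, Cyp26a1 and Cyp26b1 have filled points below 0 for all 3 genotypes, and Crabp1 and Rdh10 have none.

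Stra6, the retinol importer, had 9.29, 8.37 and 7.76 CPM in the E1-KO libraries, 17.2, 17.0 and 18.2 CPM in E2-KO and 14.8, 18.3 and 18.4 CPM in D-KO, against 34.9, 51.4 and 37.5 CPM in WT (each list gives replicates 1, 2 and 3). No KO library reached the lowest WT library, and the E1-KO libraries lay below those of the other deletions. Stra6 was 4.88-fold lower in E1-KO than in WT (log2 fold change -2.29 ± 0.16 SE, adjusted p = 5.07e-07). It was 2.37-fold lower in E2-KO (-1.24 ± 0.16, adjusted p = 6.33e-05) and 2.41-fold lower in D-KO (-1.27 ± 0.16, adjusted p = 8.30e-05). These calls held in every alternative and with any single library left out.

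**Figure D2:**
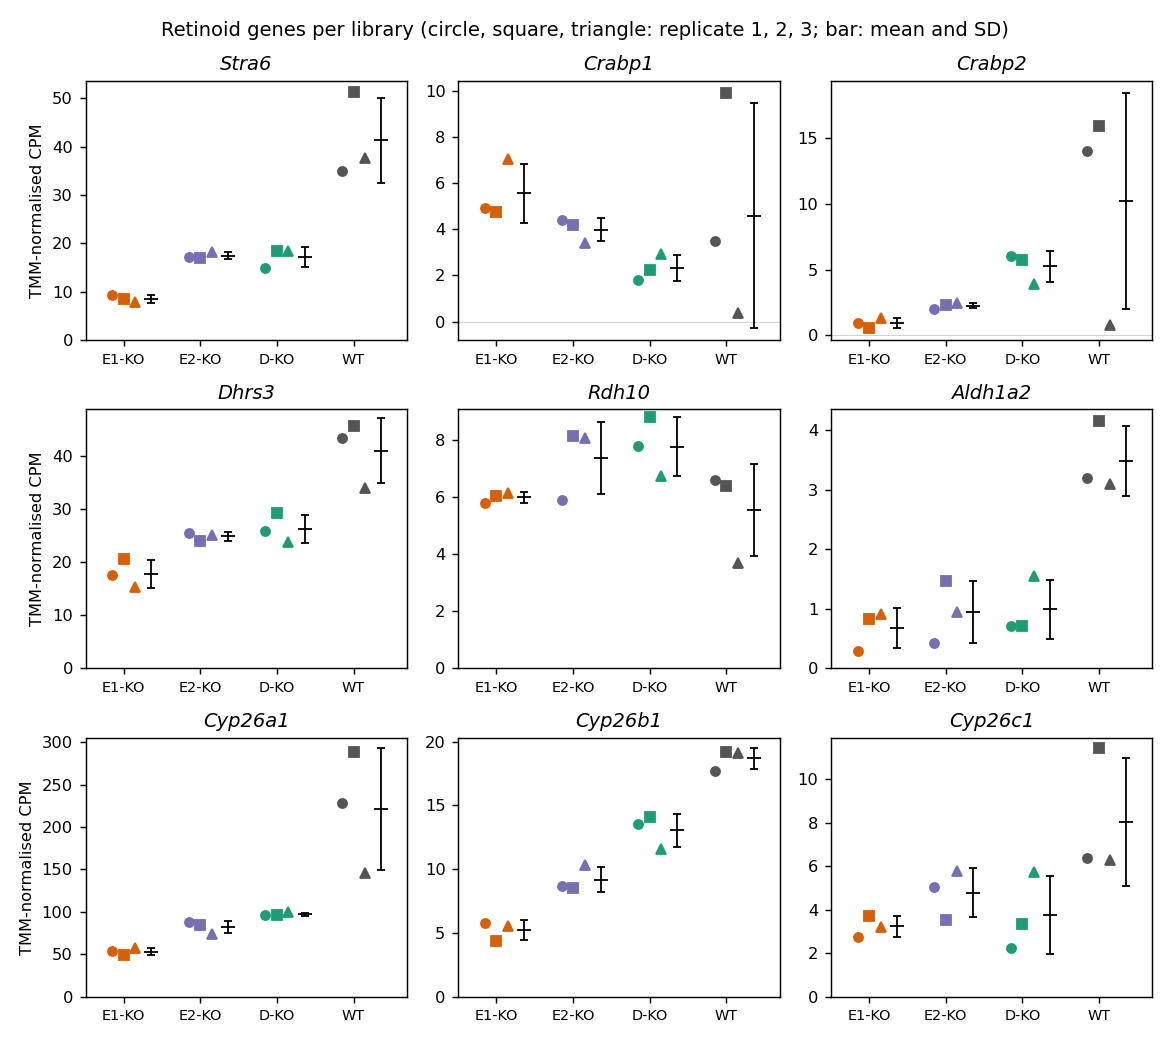
TMM-normalised CPM of the 9 retinoid genes (y axis, 1 panel a gene) in each library of E1-KO, E2-KO, D-KO and WT, with the mean and SD beside the points. E1-KO libraries lie lowest for Stra6, Crabp2, Dhrs3, Cyp26a1 and Cyp26b1 among the deletions, and the WT points of Crabp1 and Crabp2 are spread widely.

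The binding proteins were the least even across WT libraries. Crabp2, the carrier to the nucleus, had 0.948, 0.558 and 1.31 CPM in E1-KO, 2.04, 2.29 and 2.47 CPM in E2-KO and 6.06, 5.77 and 3.90 CPM in D-KO, against 14.0, 15.9 and 0.832 CPM in WT. WT replicate 3 was as low as the E1-KO libraries and far below the other WT libraries, so each KO genotype overlapped WT. Crabp2 was 11.2-fold lower in E1-KO than in WT (log2 fold change -3.48 ± 0.78 SE, adjusted p = 0.00337). In E2-KO the log2 fold change was -2.20 ± 0.66 (adjusted p = 0.0209), and the call was lost without WT replicate 1, WT replicate 2 or any E2-KO library, with limma voom (adjusted p = 0.111) and with the 6 libraries alone (0.0791). In D-KO it was -0.99 ± 0.60 (adjusted p = 0.257), and without WT replicate 3 it was called lower, at a log2 fold change of -1.52 (adjusted p = 0.000289), as it was with no filter on low counts (-0.98, adjusted p = 0.00435).

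Crabp1, the other cytosolic binding protein, was called in none of the 3 genotypes in the fit of all 12 libraries. It had 4.93, 4.74 and 7.06 CPM in E1-KO, 4.40, 4.17 and 3.42 CPM in E2-KO and 1.82, 2.23 and 2.92 CPM in D-KO, against 3.50, 9.94 and 0.356 CPM in WT. The WT values reached from below every KO library to above every one. The log2 fold changes were 0.21 ± 0.59 SE in E1-KO (adjusted p = 0.808), -0.27 ± 0.61 in E2-KO (adjusted p = 0.753) and -1.05 ± 0.65 in D-KO (adjusted p = 0.258). Calls for Crabp1 turned on the WT libraries. Without WT replicate 3 it was called lower in D-KO (-1.57, adjusted p = 0.00741), as it was with no filter on low counts (-1.04, adjusted p = 0.00997), and without WT replicate 2 it was called higher in E1-KO (1.48, adjusted p = 0.0266). Without WT replicates 1 and 3 it was called lower in E1-KO (-0.83, adjusted p = 0.0122), E2-KO (-1.32, adjusted p = 8.94e-05) and D-KO (-2.09, adjusted p = 1.24e-08). Crabp1 and Crabp2 had a log2 range within WT of 4.20 and 3.97, where the median over the 9 genes was 0.41 for E1-KO, 0.27 for E2-KO, 0.38 for D-KO and 0.81 for WT. WT replicate 3, the lowest for both, was also the library with the highest mitochondrial share, 5.88%; the part of RNA quality in these values was not tested.

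**Figure D3:**
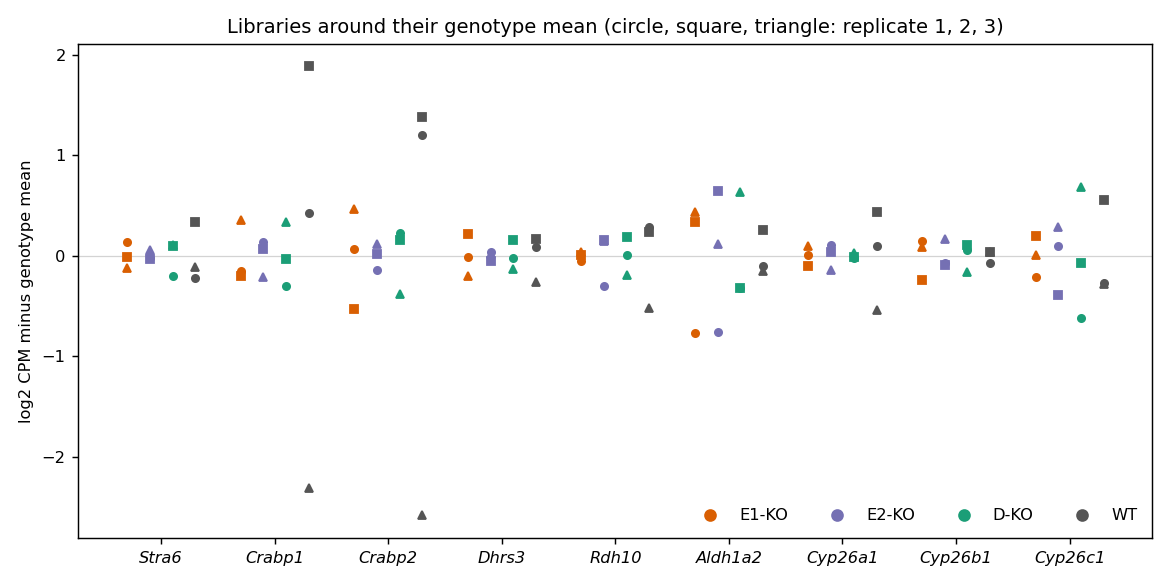
Log2 CPM of each library minus the mean of its genotype (y axis) for the 9 retinoid genes, with E1-KO, E2-KO, D-KO and WT side by side. The WT points of Crabp1 and Crabp2 span 4.20 and 3.97, and those of Cyp26b1 span 0.12.

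Of the enzymes that set the retinal supply, Dhrs3 fell and Rdh10 did not pass the test. Dhrs3, which returns retinal to retinol, had 17.5, 20.6 and 15.3 CPM in E1-KO, 25.6, 24.0 and 25.1 CPM in E2-KO and 25.8, 29.2 and 23.9 CPM in D-KO, against 43.4, 45.8 and 34.1 CPM in WT. All KO libraries were below all WT libraries, with E1-KO again lowest. The log2 fold changes were -1.21 ± 0.15 SE in E1-KO (adjusted p = 3.96e-05), -0.72 ± 0.15 in E2-KO (adjusted p = 0.00196) and -0.65 ± 0.14 in D-KO (adjusted p = 0.00561). In a fit of the 6 D-KO and WT libraries alone the D-KO value was -0.64 with an adjusted p of 0.0528.

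Rdh10, which makes retinal from retinol, had 5.78, 6.04 and 6.15 CPM in E1-KO, 5.90, 8.14 and 8.06 CPM in E2-KO and 7.77, 8.80 and 6.72 CPM in D-KO, against 6.58, 6.38 and 3.68 CPM in WT. The D-KO libraries were all above the WT libraries, as for 16.6% of all genes, and the other genotypes overlapped WT. The log2 fold change was 0.10 for E1-KO (95% interval -0.44 to 0.63), 0.40 for E2-KO (-0.13 to 0.92) and 0.47 for D-KO (-0.05 to 0.99), with adjusted p-values of 0.770, 0.190 and 0.152 in edgeR.

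Aldh1a2, the enzyme that makes retinoic acid in the embryo, was low in every library. It had 3, 9 and 9 counts in E1-KO, 4, 14 and 10 counts in E2-KO and 7, 7 and 16 counts in D-KO, against 31, 56 and 26 counts in WT. Its mean was 0.676 ± 0.341 CPM in E1-KO, 0.946 ± 0.516 CPM in E2-KO and 0.991 ± 0.491 CPM in D-KO, against 3.48 ± 0.587 CPM in WT (SD, n = 3 each). The KO libraries were all below the WT libraries and overlapped each other. Aldh1a2 fell in each deletion, with log2 fold changes of -2.38 ± 0.50 SE in E1-KO (adjusted p = 0.00202), -1.88 ± 0.47 in E2-KO (adjusted p = 0.00681) and -1.81 ± 0.46 in D-KO (adjusted p = 0.0113). The D-KO call was lost without D-KO replicate 1 or 2.

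The genes of the enzymes that destroy retinoic acid were all called lower in E1-KO and in D-KO, and all but Cyp26c1 in E2-KO. Cyp26a1, the most abundant of the 9 genes, had 53.6, 49.5 and 57.0 CPM in E1-KO, 88.7, 84.6 and 74.5 CPM in E2-KO and 95.9, 96.8 and 99.4 CPM in D-KO, against 228.5, 288.8 and 146.3 CPM in WT. No KO library reached the lowest WT library, although the WT libraries differed widely among themselves. Cyp26a1 was 4.15-fold lower in E1-KO (log2 fold change -2.05 ± 0.18 SE, adjusted p = 3.04e-06), 2.68-fold lower in E2-KO (-1.42 ± 0.18, adjusted p = 6.40e-05) and 2.27-fold lower in D-KO (-1.19 ± 0.18, adjusted p = 0.000382) than in WT. Per kilobase of exon it stood at 26.9 ± 1.89 CPM in E1-KO, 41.6 ± 3.69 CPM in E2-KO and 49.1 ± 0.906 CPM in D-KO, against 111.6 ± 36.1 CPM in WT. On this scale Dhrs3 stood at 6.09 ± 0.913, 8.51 ± 0.286, 8.99 ± 0.928 and 14.0 ± 2.11 CPM per kilobase in the same order of genotypes.

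Cyp26b1, the CYP26 enzyme best known from the hindbrain, limbs and gonads, had 5.78, 4.37 and 5.55 CPM in E1-KO, 8.68, 8.55 and 10.3 CPM in E2-KO and 13.5, 14.1 and 11.6 CPM in D-KO, against 17.7, 19.2 and 19.1 CPM in WT. Its libraries fell into 4 separate levels, one for each genotype, and its WT libraries agreed within a log2 range of 0.12. How many of all genes had 4 such levels was not counted. Cyp26b1 fell in each deletion, with log2 fold changes of -1.84 ± 0.16 SE in E1-KO (adjusted p = 2.81e-06), -1.02 ± 0.16 in E2-KO (adjusted p = 0.000293) and -0.52 ± 0.15 in D-KO (adjusted p = 0.0262). The D-KO call was lost without D-KO replicate 1 or 3, with limma voom (adjusted p = 0.177), with no filter on low counts (0.102) and with the 6 libraries alone (0.114).

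Cyp26c1, the neighbour of Cyp26a1, had 2.75, 3.72 and 3.23 CPM in E1-KO, 5.04, 3.55 and 5.79 CPM in E2-KO and 2.22, 3.34 and 5.75 CPM in D-KO, against 6.38, 11.4 and 6.30 CPM in WT. The KO libraries were all below the WT libraries, in E2-KO and D-KO by a narrow gap. Cyp26c1 fell in E1-KO (log2 fold change -1.33 ± 0.34 SE, adjusted p = 0.00824) and in D-KO (-1.10 ± 0.33, adjusted p = 0.0285). In E2-KO its log2 fold change was -0.76 ± 0.33 (adjusted p = 0.0854). The E2-KO value was called lower with no filter on low counts (-0.74, adjusted p = 0.0382) and after removal of GC content and length trends (-1.45, adjusted p = 0.00209). Without WT replicates 1 and 3, which leaves 1 WT library, the E2-KO value was -1.25. The D-KO call was lost without WT replicate 2, without D-KO replicate 1 or 2, with limma voom (adjusted p = 0.0820) and with the 6 libraries alone (0.122).

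Of all counts of the CYP26 genes, Cyp26a1 took 86.3% ± 0.356 of those in E1-KO, 85.4% ± 2.83 of those in E2-KO and 85.3% ± 0.575 of those in D-KO, against 88.7% ± 3.03 in WT (SD, n = 3 each). Cyp26b1 took 8.45% ± 0.860, 9.58% ± 1.60 and 11.5% ± 1.32 in the same deletions, against 8.05% ± 2.72 in WT. Cyp26c1 took 5.27% ± 1.06, 4.99% ± 1.36 and 3.28% ± 1.50, against 3.26% ± 0.634 in WT. For Cyp26c1 the E1-KO libraries (4.43% to 6.46%) lay above the WT libraries (2.53% to 3.67%). The E2-KO libraries (3.67% to 6.39%) met the WT range only at its upper end. The D-KO libraries overlapped WT for each gene, as did E1-KO and E2-KO for the other CYP26 genes. The shares, which depend on gene length, were not tested.

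The deletions did not lower these genes equally. Between D-KO and E1-KO, 5 of the 9 genes were higher in D-KO and 0 lower, where 8.43% of all genes were called higher: Stra6, Crabp2, Dhrs3, Cyp26a1 and Cyp26b1. Cyp26b1 was 2.50-fold higher in D-KO than in E1-KO (log2 fold change 1.32 ± 0.17 SE, adjusted p = 0.000233), Stra6 2.03-fold (1.02 ± 0.17, adjusted p = 0.00152) and Cyp26a1 1.83-fold (0.87 ± 0.18, adjusted p = 0.00679). For each of these 3 genes, the call held in every alternative and with any library left out. Dhrs3 was higher by 0.56 ± 0.15 (adjusted p = 0.0216) and Crabp2 by 2.49 ± 0.80 (adjusted p = 0.0440). The Dhrs3 call was lost without E1-KO replicate 1 or 3 or D-KO replicate 1 or 2, and the Crabp2 call without any 1 of the 9 KO libraries. Both were lost with library totals as the only scaling (adjusted p = 0.0782 for Dhrs3 and 0.0592 for Crabp2). With E1-KO replicate 1 or 3 or D-KO replicate 1 or 2 left out, the count of 5 was 3. The shares of all genes called in either direction were then 6.82%, 7.42%, 8.32% and 7.22%, against 15.9% as reported. In all, 6 genes had D-KO libraries above all E1-KO libraries, as 27.3% of all genes did, and Crabp1 had them below, as 27.1% did.

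Between E2-KO and E1-KO, 2 of the 9 genes were higher in E2-KO, where 0.274% of all genes were called higher. Stra6 was 2.06-fold higher in E2-KO (log2 fold change 1.04 ± 0.17 SE, adjusted p = 0.0115) and Cyp26b1 1.76-fold (0.82 ± 0.17, adjusted p = 0.0448). Both calls were lost without any 1 of the E2-KO or E1-KO libraries, and that of Cyp26b1 also without any 1 of the D-KO libraries and with library totals (adjusted p = 0.0633). In a fit of these 6 libraries alone, whose spread is not shared with WT, 5 of the 9 were higher in E2-KO and 10.6% of all genes: Stra6, Crabp2, Dhrs3, Cyp26a1 and Cyp26b1. The same 5 were called without WT replicate 3, where 4.2% of all genes were called in either direction. In 5 genes the E2-KO libraries were all above the E1-KO libraries, as in 19% of all genes.

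Between D-KO and E2-KO, 0 of the 9 genes were called in edgeR, where 4.48% of all genes were. At an unadjusted p below 0.05 there was 1, Cyp26b1, against 21.1% of all genes. DESeq2 called 0 of the 9, where it called 7.24% of all genes, and limma voom 4, where it called 33.9%. The log2 fold change of Cyp26b1 was 0.50 (95% interval 0.14 to 0.87, adjusted p = 0.0899). That of Stra6 was -0.02 (-0.40 to 0.35), that of Dhrs3 0.08 (-0.26 to 0.42) and that of Cyp26a1 0.24 (-0.18 to 0.65). Without WT replicate 3, Cyp26b1 (0.50, adjusted p = 0.0405) and Crabp2 (1.20, adjusted p = 0.00741) were called higher in D-KO. In that fit 14.4% of all genes were called in either direction. In the fit of these 6 libraries alone 3 genes were higher in D-KO (19% of all genes) and 1 lower (18.3%).

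**Figure D4:**
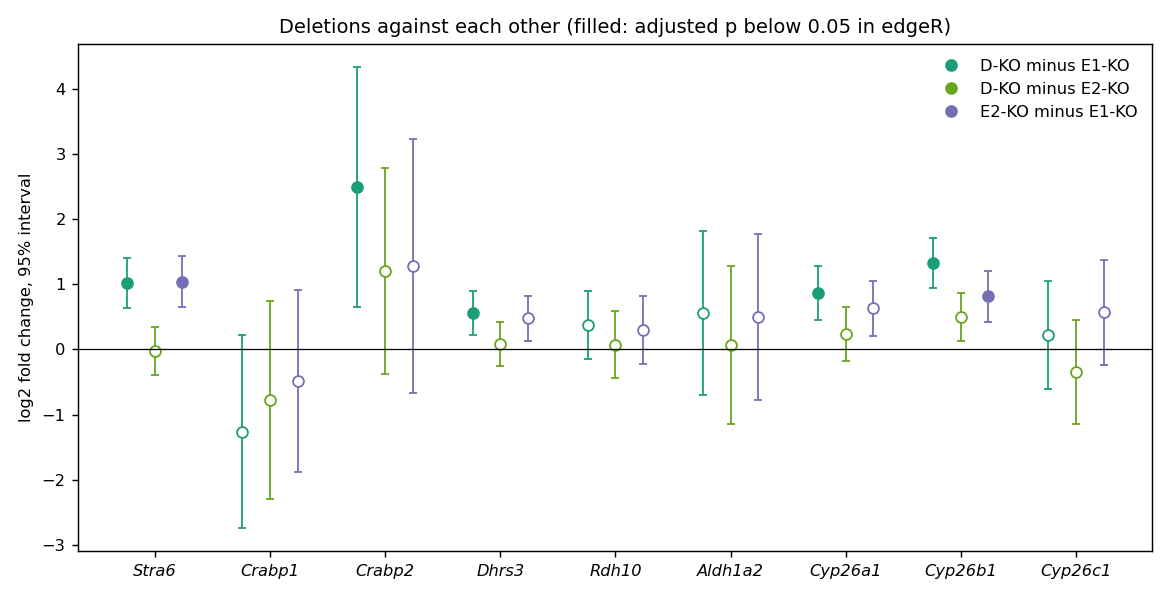
Log2 fold changes of the 9 retinoid genes between the deletions (D-KO minus E1-KO, D-KO minus E2-KO and E2-KO minus E1-KO), with 95% intervals from the edgeR model and filled points for an adjusted p below 0.05. Stra6 and Cyp26b1 lie above 0 in D-KO and in E2-KO against E1-KO, and no point of D-KO minus E2-KO is filled.

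For Cyp26b1 the order of means was E1-KO, E2-KO, D-KO and WT, low to high, with D-KO and E2-KO not separated by the test. The calls of E2-KO against E1-KO and of D-KO against WT were lost in several alternatives. For Stra6 and Dhrs3 D-KO and E2-KO were level within their intervals, and E2-KO and E1-KO were separated by the test for Stra6 and not for Dhrs3 (adjusted p = 0.207). For Cyp26a1 the means rose in the order E1-KO, E2-KO, D-KO and WT, and neither E2-KO and E1-KO (adjusted p = 0.177) nor D-KO and E2-KO (0.473) were separated. For Aldh1a2 and Cyp26c1 no pair of deletions was separated. The spread shared in the fit is wider than that of the KO libraries alone, as the median tagwise dispersion was 0.00660 within KO and 0.0935 within WT genotypes.

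D-KO was less low than the sum of the single deletions. On the log2 scale, an interaction compares D-KO minus WT with the sum of E1-KO minus WT and E2-KO minus WT. It was positive and called in 6 of the 9 genes, where 18.1% of all genes were called positive. For Stra6 D-KO minus WT was -1.27 and the sum -3.53, a difference of 2.26 ± 0.23 SE (adjusted p = 1.11e-05). For Cyp26a1 the values were -1.19 and -3.48 (interaction 2.29 ± 0.26, adjusted p = 2.44e-05), and for Cyp26b1 -0.52 and -2.86 (2.34 ± 0.23, adjusted p = 7.27e-06). Dhrs3 (1.28 ± 0.21, adjusted p = 0.000459), Aldh1a2 (2.44 ± 0.72, adjusted p = 0.0173) and Crabp2 (4.69 ± 1.04, adjusted p = 0.00378) made up the rest of the 6. For Cyp26c1 the interaction was 0.98 ± 0.49 (adjusted p = 0.127), for Rdh10 -0.02 ± 0.32 (0.963) and for Crabp1 -0.99 ± 0.89 (0.405). The interaction of Aldh1a2 was not called without D-KO replicate 3 (adjusted p = 0.0736), and that of Crabp1 was called negative without WT replicate 2 (-2.26, adjusted p = 0.0131). That of Cyp26c1 was called positive with GC content and length trends removed (1.83, adjusted p = 0.00568).

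**Figure D5:**
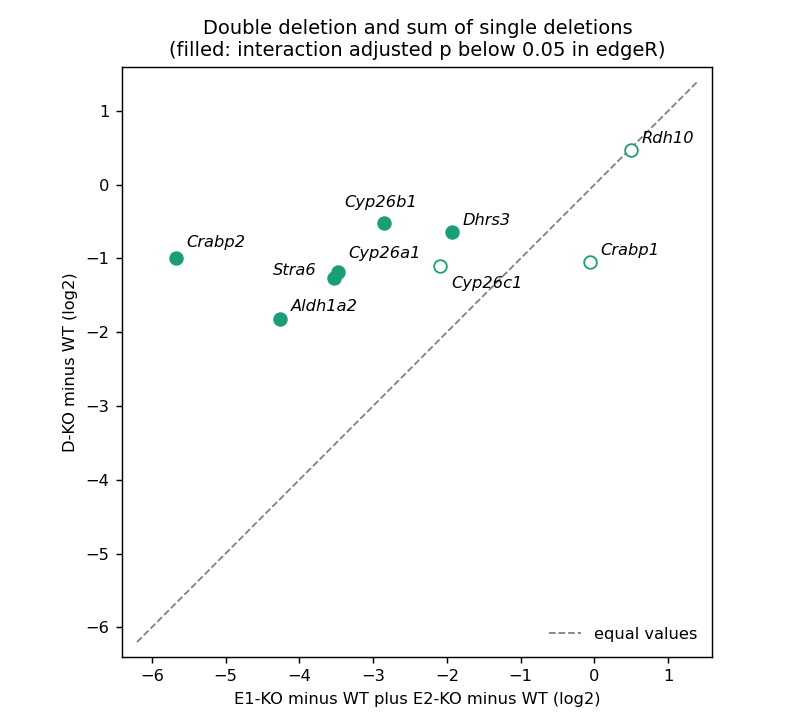
D-KO minus WT (y axis, log2) against the sum of E1-KO minus WT and E2-KO minus WT (x axis, log2) for the 9 retinoid genes, with a dashed line at equal values and filled points for an interaction with an adjusted p below 0.05 in edgeR. All 6 filled points lie above the line.

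Calls among other genes of the pathway went in both directions, as they did over all genes tested. Of 10 retinoid receptors and cofactors, 3 were called higher and 1 lower in E1-KO than in WT, 2 higher and 1 lower in E2-KO, and 2 higher and 1 lower in D-KO. Their median log2 fold changes were 0.19, 0.02 and 0.11 against -0.01, 0.00 and -0.02 over all genes. The shares of all genes called in either direction were 34.2%, 35.3% and 22.8% in the same comparisons. Nrip1, a corepressor of nuclear receptors that retinoic acid is known to induce, averaged 52.6 ± 1.60 CPM in E1-KO, 51.9 ± 3.30 CPM in E2-KO and 85.0 ± 2.58 CPM in D-KO, against 162.0 ± 55.3 CPM in WT, with log2 fold changes of -1.62, -1.64 and -0.93 (adjusted p = 1.73e-05, 1.86e-05 and 0.00201). Rarg, the gamma receptor of retinoic acid, averaged 339.1 ± 14.9 CPM in E1-KO, 368.1 ± 18.6 CPM in E2-KO and 359.5 ± 4.56 CPM in D-KO, against 263.9 ± 49.0 CPM in WT, and was called higher in each (log2 fold change 0.36, 0.48 and 0.45). Ppard, a nuclear receptor that can bind retinoic acid, was also called higher in each (0.53, 0.75 and 0.65). Rxra, a partner of the retinoic acid receptors, was higher in E1-KO (0.42, adjusted p = 0.0131), with 0.21 in E2-KO and 0.02 in D-KO.

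Of 47 other retinoid handling genes 45 were in the tables and 22 were tested. In E1-KO 3 were higher and 3 lower than in WT, in E2-KO 2 higher and 3 lower, and in D-KO 4 higher and 5 lower, with medians of -0.04, 0.05 and -0.02 on the log2 scale. These counts stand beside 34.2%, 35.3% and 22.8% of all genes called in either direction. Lrp2, the megalin receptor that takes up retinol bound to its carrier, averaged 61.3 ± 3.74 CPM in E1-KO, 61.6 ± 2.84 CPM in E2-KO and 125.2 ± 3.61 CPM in D-KO, against 230.2 ± 113.9 CPM in WT (log2 fold change -1.91, -1.90 and -0.88, each called). Scarb1, a receptor that takes up lipids and carotenoids, was higher in each (0.89, 1.01 and 0.53), and so was Rdh13, a retinol dehydrogenase of mitochondria (0.48, 0.44 and 0.62). Fabp5, a fatty acid carrier that can bind retinoic acid, and Retsat, which saturates retinol, were lower in D-KO (-1.20 and -0.60), while Lpl was higher (0.60). Rlbp1, a retinal carrier, was lower in E1-KO (-0.54, adjusted p = 0.0285).

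Of 20 transcription factors and other regulators known to be induced by retinoic acid 19 were tested. In E1-KO 1 was higher and 10 lower than in WT, in E2-KO 2 higher and 7 lower, and in D-KO 1 higher and 8 lower, with median log2 fold changes of -0.88, -0.59 and -0.50. Of all genes, 34.2%, 35.3% and 22.8% were called in these comparisons with WT, and 18.5%, 18.6% and 12.2% were called lower. Between D-KO and E1-KO 5 of the 19 were higher in D-KO and 1 lower, where 8.43% of all genes were called higher. Markers of other cell types were called against WT as well, in several lists in both directions. The same shares of all genes called against WT stand beside their counts. Of 17 markers of primitive and visceral endoderm, 14 were above the filter. In E1-KO, E2-KO and D-KO 10, 10 and 9 were lower than in WT, and 2, 2 and 1 were higher. Their summed level was 464.5 to 490.0 CPM in E1-KO, 595.4 to 619.9 CPM in E2-KO and 571.8 to 596.5 CPM in D-KO, against 712.6 to 780.5 CPM in WT, and 0 of the 17 were at 0 in all libraries. Of 9 markers of 2-cell-like cells, 8 were in the tables and 7 above the filter, of which 7, 7 and 6 were lower, with summed levels of 16.0 to 18.2, 15.3 to 21.2 and 52.5 to 54.0 CPM, against 145.1 to 309.8 CPM in WT. Of 10 trophectoderm markers 8 were above the filter, and 5, 5 and 2 were higher and 0, 0 and 2 lower in the same order, with summed levels of 147.7 to 160.1, 152.8 to 167.8 and 86.1 to 88.9 CPM, against 96.9 to 103.0 CPM in WT. Of the 10 embryonic stem cell markers 7, 7 and 6 were higher and 1, 0 and 0 lower. Of 7 early neural markers above the filter, 2, 1 and 2 were higher and 3, 3 and 3 lower. Of 5 markers of primitive streak and mesoderm above it, 1, 1 and 1 were higher and 0, 0 and 1 lower. Of 6 germ cell markers 1, 1 and 1 were higher and 1, 1 and 1 lower. The part of these cell types in the levels of the retinoid genes was not tested. Of 8 fibroblast markers Lum was at 0 in all libraries, and the sum of the list was 5.30 to 8.15 CPM in E1-KO, 7.08 to 8.14 CPM in E2-KO and 5.25 to 6.04 CPM in D-KO, against 3.81 to 7.12 CPM in WT.

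The genes whose levels ran closest to those of each retinoid gene were ranked by Pearson's r of log2 CPM over the 12 libraries, among 12045 genes. The r describes likeness across the libraries of all 4 genotypes together, so differences between genotype means enter it. It carries no test. Stra6 ran closest to Hoxa5, a HoxA homeobox gene (r = 0.97), Sox4 (0.96) and Lamb1 (0.96). Cyp26a1 ran closest to Pgam2 (0.98), Hoxa4, another HoxA gene (0.98), and Meis1, a cofactor of Hox proteins (0.98). For Cyp26b1 the closest were Cubn, a partner of megalin in uptake (0.98), Akr1b3 (0.98) and Nt5dc2 (0.97), and for Dhrs3 they included Pclaf (0.96) and Arf4 (0.95). Cyp26c1 had lower values, with Ypel2 (0.89), Lysmd2 (0.89) and Jam3 (0.86). The closest to Crabp2 were Ccnb1ip1 (0.95), Gadd45g (0.94) and Eif4a1 (0.94), to Crabp1 Ccdc84 (0.96), Hint1 (0.96) and Dancr (0.95), and to Rdh10 Lysmd1 (0.97), Dhrs4 (0.93) and Calm3 (0.93). Aldh1a2 was below the level set for this ranking. Among the 9 genes themselves, Stra6, Dhrs3 and Cyp26a1 had r of 0.95 with each other, and Crabp1 had r of -0.26 with Stra6.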

How the data were processed

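Total RNA was taken with Trizol, per the labels' protocols. For each of the 12 libraries the authors deposited raw read counts per gene symbol. The submitters' processing notes name HISAT2 2.1.0, mm10, HTSeq 0.9.1 and DESeq2 1.18.1. The sources used here do not name the annotation or the strand setting of HTSeq. Lines of reads without a gene were not used; those with no feature came to 1.11 to 1.20 times the counted reads.

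Counts were analysed in R 4.3.3 with edgeR 4.0.16: filterByExpr by genotype, TMM scaling, and 1 robust quasi-likelihood fit of the 12 libraries with genotype as the only term (common dispersion 0.0265). A gene was called at a Benjamini-Hochberg adjusted p below 0.05 over the 16765 genes tested, in 7 contrasts. Adjusted p-values come from edgeR; where limma (3.58.1) or DESeq2 (1.42.0) was used it is named. Standard errors belong to unshrunken coefficients, and 95% intervals use 8 residual degrees of freedom. In the shared fit the spread assumed for WT is too small and that for the KO libraries too large. Levels are TMM-normalised CPM, and levels per kilobase use the union of GENCODE M21 exons. The script for edgeR was first tested on simulated data.

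The 9 genes, the lists and the tests were chosen with earlier results of these data known. The rule for named genes took all 9, of the receptor and handling lists up to 8 genes called against WT with an average of at least 1 log2 CPM, and the 3 genes closest to each of the 9 by Pearson's r (prior count 2). Alternatives were other scalings, DESeq2, limma voom, other filters, the 6 libraries of a comparison alone, a replicate block, GC content and length trends, and libraries left out. Of the genes that the rule for named genes took, 2 are not reported here. The 4C and ChIP samples were not analysed here.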

Additional observations from a re-analysis of the deposited data

Results flagged for a closer look

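In 6 of the 9 retinoid genes, the effect of lacking both elements differed from the sum of the effects of lacking E1 and E2, by the interaction test of edgeR. The interaction was 2.26 for Stra6, 4.69 for Crabp2, 1.28 for Dhrs3, 2.44 for Aldh1a2, 2.29 for Cyp26a1 and 2.34 for Cyp26b1 on the log2 scale. Each was positive, so D-KO lay nearer to WT than the sum of the single deletions. The interaction was called in either direction in 35.2% of all genes. It contains the WT libraries with a sign opposite to that of the single comparisons, and the WT libraries were the most spread. With WT replicates 1 and 3 left out, 1 WT library remains. For the genes outside these 6 the interaction was then 1.46 for Cyp26c1, 0.15 for Rdh10 and 0.0498 for Crabp1.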

How the results depend on the processing

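Apart from fits with libraries left out, there were 11 other settings. In each, 7 of the 9 genes were called in E1-KO, beside 15.9% to 36% of all genes. Limma voom with weights by genotype called 3278, 3229 and 1927 genes in E1-KO, E2-KO and D-KO against WT, 7960 in D-KO against E1-KO, 5678 in D-KO against E2-KO and 2812 in E2-KO against E1-KO. Fits of 6 libraries alone called 2552, 2535, 1438, 8025, 5872 and 3377 in the same order. The counts reported were 5739, 5919, 3824, 2674, 751 and 100. Without WT replicates 1 and 3, D-KO had 6238 calls against WT, 8030 against E1-KO and 6158 against E2-KO, and E2-KO 3457 against E1-KO; this setting was chosen with earlier results of these data known, and assumes the lone WT library to vary like the others. For D-KO against E2-KO the count was 1213 with DESeq2, 1472 with no filter and 1398 with GC content and length trends removed, and for E2-KO against E1-KO 250, 415 and 297.

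The count of the 9 genes in D-KO against WT was 3 with 6 libraries alone, where 9.09% of all genes were called. In D-KO against E1-KO it was 3 with library totals as the only scaling, where 16.3% of all genes were called. In D-KO against E2-KO it was 4 with voom or with 6 libraries alone, where 33.9% and 37.3% of all genes were called. It was 1 with no filter or with GC content and length trends removed, where 4.62% and 8.34% were called. In E2-KO against E1-KO it was 4 with voom, 5 with 6 libraries alone and 1 with library totals. The shares of all genes called were then 16.8%, 21.4% and 0.716%. Library totals put the median log2 fold change of all genes at 0.10 in E1-KO minus WT, -0.11 in D-KO minus E1-KO and -0.18 in the interaction (-0.01 in each as reported). The share of calls that were higher was then 57.1% in E1-KO against WT (45.9% as reported), 35.9% in D-KO against E1-KO (52.9%), 35% in E2-KO against E1-KO (46%) and 38.7% in the interaction (51.4%).

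The replicate numbers did not pair the libraries: 0 of 18 same-number pairs had a correlation over 0.1 (-0.0776 to 0.0823), and 2 of 12 libraries correlated best with their own number. With a replicate block 1 of the 9 genes was called in E2-KO against E1-KO, where 0.424% of all genes were called. With the block and GC content and length trends removed, 1 was called in D-KO against E2-KO, with 1146 genes in all, and 196 genes were called in E2-KO against E1-KO.

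With 1 library left out, genes called ranged over 3965 to 8753 for E1-KO, 3969 to 8887 for E2-KO and 2413 to 7006 for D-KO against WT, 1174 to 4934 in D-KO against E1-KO, 227 to 2875 in D-KO against E2-KO, 16 to 722 in E2-KO against E1-KO and 4621 to 8673 for the interaction. The count of the 9 ranged over 7 to 8, 5 to 6, 3 to 8, 3 to 6, 0 to 2, 0 to 5 and 5 to 7. In E2-KO against E1-KO it was 0 without any 1 of the E2-KO or E1-KO libraries, where 0.0929% to 0.163% of all genes were called. It was 1 without any 1 of the D-KO libraries (0.319% to 0.383% of all genes) and 5 without WT replicate 3 (4.2%). In D-KO against E2-KO it was 1 without WT replicate 2 (16.8% of all genes) and 2 without WT replicate 3 (14.4%).

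Some log2 fold changes turned in direction, and the cause was not tested. Crabp1 in E1-KO was -0.0502 with GC content and length trends removed and -0.83 without WT replicates 1 and 3, over -0.30 to 1.48 with 1 library left out. In E2-KO it was 0.38 with voom and over -0.79 to 1.00, in D-KO over -1.57 to 0.22, and its interaction was 0.0498 without WT replicates 1 and 3. Rdh10 in E1-KO was -0.0786 without WT replicates 1 and 3 and over -0.11 to 0.23; its interaction was 0.000369 with DESeq2 size factors, 0.00252 with DESeq2, 0.15 without WT replicates 1 and 3 and over -0.16 to 0.18. In D-KO minus E2-KO, Stra6 was 0.12 with GC content and length trends removed, with or without the block, and over -0.0732 to 0.0738, Rdh10 over -0.0603 to 0.17, Aldh1a2 over -0.42 to 0.51 and Dhrs3 over -0.00591 to 0.15. Cyp26c1 in D-KO minus E1-KO ran over -0.22 to 0.49. Lamb1 and Dancr left the 3 closest genes at a prior count of 0.5. Aldh1a2 fell under the filter in the 6-library fits between deletions, and its 3 to 16 counts in KO libraries limit it most.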
